A study of Rattus norvegicus with 6 samples.

Results

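rno-miR-451-5p, rno-miR-144-3p, rno-miR-144-5p, rno-miR-486 and rno-miR-185-5p are miRNAs known from developing and mature red blood cells. They were chosen for that role, and were taken by name from a table of small RNA reads of rat plasma exosomes. All 5 were found, each listed once, among 420 mature miRNAs, and all 5 were above 0 in each of the 6 libraries. The rats were male Sprague Dawley animals of 200–250 g, and their plasma gave the exosomes. EXO2 (3 libraries) came from rats injected with melatonin, the pineal hormone, at 10 mg/kg in 5% DMSO and PBS, and EXO1 (3 libraries) from rats injected with 5% DMSO and PBS alone. Injections were intraperitoneal for 7 days in both groups, and exosomes were isolated on day 8. The labels name PBS and centrifugation, whereas the methods of the study name saline and an isolation kit. Nothing in the labels states that each library is a separate rat, so the p-values rest on library-to-library spread, part of which may be technical.

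miR-144 and miR-451 are cut from a single primary transcript that the erythroid factor GATA1 activates, as shown in mouse and zebrafish. A precursor hairpin normally yields a 5p and a 3p arm, of which the guide strand is loaded into an Argonaute protein and the passenger strand is mostly degraded. miR-451 is an exception, since its hairpin is too short for Dicer and is cut by Ago2 in mouse and zebrafish. miR-451 protects mouse red cells from oxidative stress through Ywhaz, miR-144 represses the antioxidant factor Nrf2 in human red cells, and miR-486, which lies in the ankyrin gene Ank1 in mouse and human, is made in red cell precursors and also in muscle.

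The mature sequences are shown because the seed, bases 2 to 8 of a mature miRNA, sets its targets. They are from RefSeq on build GRCr8, 5′ to 3′, with the seed in capitals, for the 4 miRNAs that the sequence table holds.
rno-miR-451-5p: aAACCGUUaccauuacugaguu
rno-miR-144-3p: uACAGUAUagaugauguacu
rno-miR-144-5p: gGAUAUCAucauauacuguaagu
rno-miR-185-5p: uGGAGAGAaaggcaguuccuga

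The 4 seeds all differ, and 0 other rat miRNAs in the table share any of them in full. Bases 2 to 7 of miR-144-3p recur in 2 other miRNAs, miR-101a-3p and miR-101b-3p, both measured here. The hairpins below, with the measured strands in capitals, show how the strands sit in their precursors.
Mir144: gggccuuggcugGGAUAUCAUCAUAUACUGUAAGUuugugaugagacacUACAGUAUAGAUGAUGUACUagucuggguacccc
Mir451a: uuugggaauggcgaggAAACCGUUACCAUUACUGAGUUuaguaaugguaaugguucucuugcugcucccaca

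In GRCr8, the Mir144 hairpin lies at chr10:63459397-63459479 and the Mir451a hairpin at chr10:63459569-63459640, both on the plus strand and 89 bases apart. The 2 arms of miR-144 take bases 13 to 35 and 50 to 69 of its 83-base hairpin. miR-451-5p takes bases 17 to 38 of a 72-base hairpin, which runs from the 5′ stem past the middle. The Mir185 hairpin, at chr11:96169028-96169107 on the plus strand, lies within the span of the protein-coding gene Tango2. These coordinates belong to the sequence table and not to the processed reads, whose build is not given in the sources used here.

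Values are normalized CPM, reads scaled by a factor that the authors set per library. Dividing them by the worth of 1 read gave 2279500 to 5868405 miRNA reads per library. The libraries of EXO1 stood apart from each other. Muscle miRNAs (9 of a list of 11 were in the table) took 1.23%, 1.51% and 0.739% of the reads in EXO2 replicates 1, 2 and 3, against 82.6%, 23.2% and 0.909% in EXO1. The 3 liver miRNAs took 0.528% to 1.08% in EXO2 and 0.676% to 10.2% in EXO1, highest in replicate 3. The high shares thus sat in single EXO1 libraries, muscle in replicates 1 and 2 and liver in replicate 3, and the other EXO1 libraries lay inside the range of EXO2. The part of muscle and liver RNA in the results was not tested. The authors' factors were 1.38, 1.04 and 0.941 in EXO2 and 0.264, 1.86 and 1.52 in EXO1, so normalized CPM of EXO1 replicate 1 stand well above its plain CPM. The comparison of EXO2 with EXO1 used limma on log2(normalized CPM + 1), and p-values were adjusted by Benjamini-Hochberg over the 410 miRNAs detected in 2 or more libraries. In plasma, more vesicles from red cells and more of an miRNA per vesicle cannot be told apart.

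All EXO2 values of miR-451-5p, miR-144-3p and miR-486 exceeded all EXO1 values, miR-185-5p was higher on average with overlapping ranges, and miR-144-5p was near equal in both groups. None of the 5 had an adjusted p under 0.05 in limma, nor did any of the 410 miRNAs (0.0%), of which 54 had an unadjusted p under 0.05. At the thresholds of the methods, a fold over 1.5 and an unadjusted p under 0.05, 3 of the 5 were counted as higher, whereas 5.85% of all miRNAs were. Groups did not overlap, with EXO2 higher, for 3 of the 5 and for 11.5% of all miRNAs. The median log2 fold change was 1.53 over the 5, -0.56 over all 410 and 0.12 over the 139 with a mean of at least 100 normalized CPM, where all 5 lie. The shares of 5.85% and 11.5% are over all 410, most of which lay below that level. They were not computed over the 139, so they are no background of like level. The study lists miR-451-5p and miR-144-3p among the miRNAs it found higher in these same libraries, so their counts are not independent evidence.

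**Figure D1:**
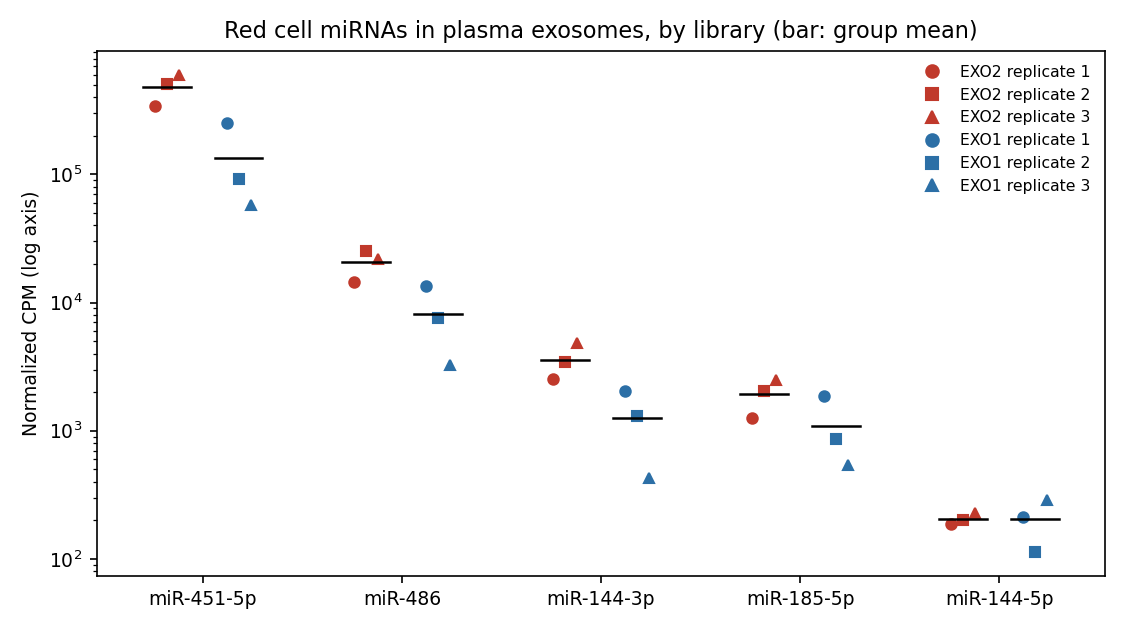
Normalized CPM on a log axis of the 5 miRNAs in the 3 EXO2 (red, left) and 3 EXO1 (blue, right) libraries, with symbols for replicates and a bar at the group mean. The 3 EXO2 points lie above the EXO1 points for miR-451-5p, miR-486 and miR-144-3p, but not for miR-185-5p and miR-144-5p.

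miR-451-5p, the most abundant of the 5, reached 340363, 506938 and 601320.1 normalized CPM in EXO2 (replicates 1, 2 and 3), against 252984, 91368 and 58208 in EXO1. The gap between the groups was narrow, since EXO1 replicate 1 approached EXO2 replicate 1, and the highest EXO1 library was 4.35 times the lowest. The log2 fold change was 2.09 ± 0.94 (SE; limma, adjusted p = 0.342). It was 2.69 without EXO1 replicate 1 and 1.63 without EXO1 replicate 3. It was the most abundant of all miRNAs in the 3 EXO2 libraries, and had rank 2, 2 and 3 in EXO1 replicates 1, 2 and 3.

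miR-144-3p, 1 of the 2 arms of miR-144, which both share a primary transcript with miR-451, had 2529, 3409 and 4839 normalized CPM in EXO2, against 2024, 1304 and 425 in EXO1. EXO1 replicate 3 was the lowest by far in this measure, and the group means were 3592 ± 1166 in EXO2 and 1251 ± 801 in EXO1 (SD, n = 3 each). The log2 fold change was 1.74 ± 0.59 (SE; limma, adjusted p = 0.313), and 1.09 without EXO1 replicate 3.

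miR-144-5p, the other arm of the same hairpin, had 189, 202 and 227 normalized CPM in EXO2, against 212, 114 and 286 in EXO1. Both the lowest and the highest of the 6 values belonged to EXO1, so the EXO2 range lay inside that of EXO1. The means were 206 ± 19.6 in EXO2 and 204 ± 86.4 in EXO1 (SD, n = 3 each), and the log2 fold change was 0.11 ± 0.63 (SE; limma, adjusted p = 0.940). Its sign turned to -0.26 without EXO1 replicate 2 and to -0.096 with median-ratio (RLE) size factors.

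miR-486 had 14488, 25395 and 21804 normalized CPM in EXO2, against 13434, 7589 and 3276 in EXO1. EXO1 replicate 1 lay just under EXO2 replicate 1, and the log2 fold change was 1.53 ± 0.62 (SE; limma, adjusted p = 0.333). Without EXO1 replicate 3 it was 0.99. Its rank among all miRNAs was 5, 3 and 5 in EXO2 replicates 1, 2 and 3, against 12, 13 and 27 in EXO1.

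miR-185-5p had 1264, 2045 and 2507 normalized CPM in EXO2, against 1872, 862 and 542 in EXO1. EXO1 replicate 1 exceeded EXO2 replicate 1, so the groups overlapped in normalized CPM. The means were 1939 ± 628 in EXO2 and 1092 ± 694 in EXO1 (SD, n = 3 each), and the log2 fold change was 0.96 ± 0.56 (SE; limma, adjusted p = 0.389). It was 1.45 without EXO1 replicate 1 and 0.55 without EXO1 replicate 3. As shares of all miRNA reads, the values of miR-185-5p were 0.188%, 0.228% and 0.252% in EXO2, against 0.0504%, 0.175% and 0.0870% in EXO1. These shares did not overlap, although muscle miRNAs took 82.6% of the reads in EXO1 replicate 1.

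The count of 3 of 5 past the thresholds of the methods depends on single libraries. It became 4 without EXO1 replicate 1, with miR-185-5p added, and 2 without EXO2 replicate 1, whereas it was 1, miR-144-3p, without any other library. Over all miRNAs tested, 24 were counted as higher in the reported fit, 31 without EXO1 replicate 1 and 17 without EXO2 replicate 1. These counts were 15 and 13 without EXO2 replicates 2 and 3 in turn, and 23 and 24 without EXO1 replicates 2 and 3 in turn. The rise to 4 thus came with a rise over all miRNAs. The lowest adjusted p of the 5 without 1 library was 0.108, without EXO1 replicate 1. In the order of levels, miR-451-5p led miR-486 by 23.5, 20.0 and 27.6 times within EXO2 replicates 1, 2 and 3 and by 18.8, 12.0 and 17.8 times within EXO1. miR-144-3p and miR-185-5p were the only neighbours in that order whose ranges overlapped, and only in EXO1, although in EXO2 the lowest miR-144-3p value, 2529, barely exceeded the highest miR-185-5p value, 2507. In EXO1 miR-185-5p exceeded miR-144-3p in replicate 3, with 542 against 425 normalized CPM.

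**Figure D2:**
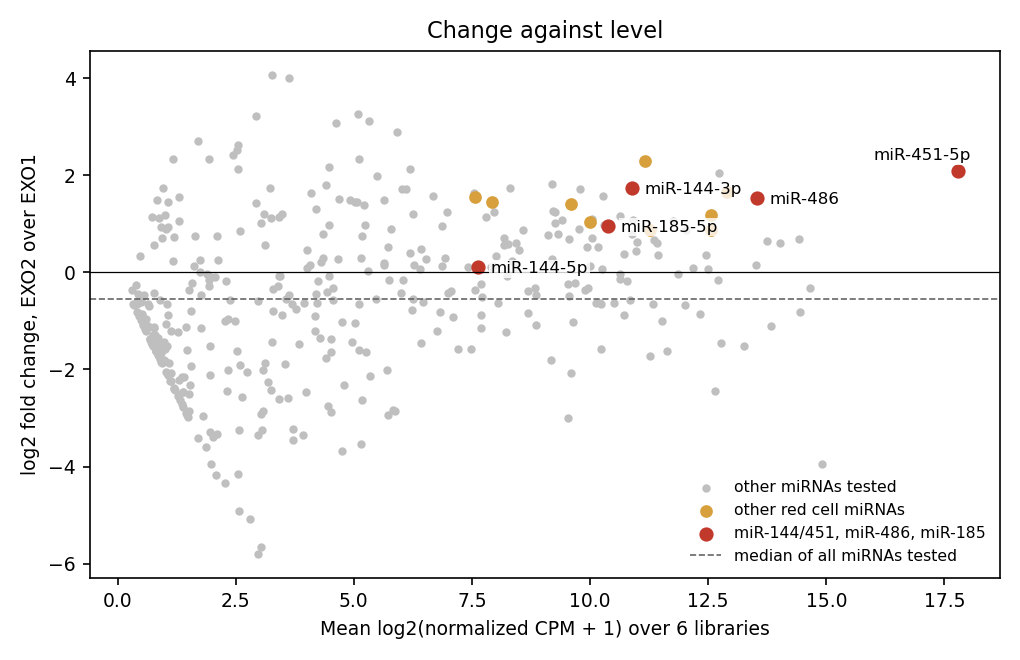
log2 fold change of EXO2 over EXO1 against the mean log2(normalized CPM + 1) over 6 libraries for 410 miRNAs, with the 5 red cell miRNAs in red and 9 other red cell miRNAs in orange. All 14 lie above both 0 and the dashed median of -0.56, and miR-144-5p lies nearest to 0 at 0.11.

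The 5 miRNAs together took 53.4%, 59.95% and 63.5% of all miRNA reads in EXO2 replicates 1, 2 and 3, against 7.28%, 20.53% and 10.1% in EXO1. The 95% Wilson intervals of these shares were at most 0.112 percentage points wide and cover counting error only, since PCR copies cannot be told from separate molecules here. The groups did not overlap (2-sided exact permutation test, p = 0.1, which is the lowest p that 3 and 3 libraries can reach). Since shares add up to the whole library, the shares outside muscle are also given. Among reads outside the muscle list the 5 took 54.1%, 60.9% and 64.0% in EXO2, against 41.7%, 26.7% and 10.2% in EXO1 (2-sided exact permutation test, p = 0.1), so the groups stayed apart and the EXO1 libraries changed order. miR-451-5p made up 94.9%, 94.2% and 95.3% of the reads of the 5 in EXO2, and 93.5%, 90.3% and 92.8% in EXO1. Without miR-451-5p, the other 4 took 2.79%, 3.51% and 2.98% of the reads outside the muscle list in EXO2, against 2.71%, 2.61% and 0.734% in EXO1. EXO1 replicates 1 and 2 thus lay close below EXO2 replicate 1 in this share, and EXO1 replicate 3 far below. The reads it is taken of still include those of miR-451-5p, which were a larger part of them in EXO2. That lowers the share of the other 4 more in EXO2 than in EXO1, so the closeness depends partly on this denominator.

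**Figure D3:**
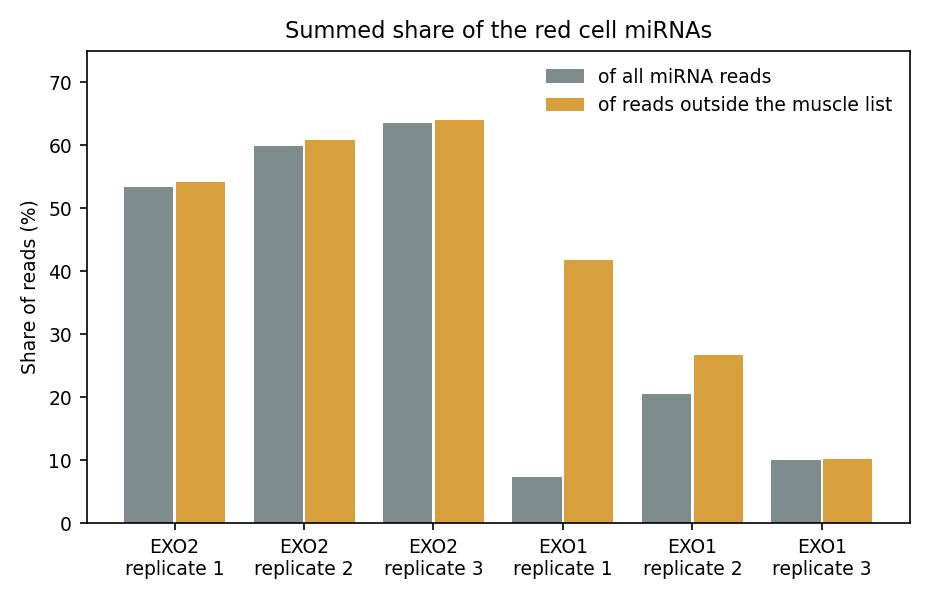
Summed share of miRNA reads, in percent, of the 5 red cell miRNAs in each EXO2 and EXO1 library, of all miRNA reads (grey) and of reads outside the muscle list (orange). In EXO1 replicate 1 the share is 7.28% of all reads and 41.7% outside muscle, whereas in EXO2 both shares are above 53%.

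Ratios among these miRNAs within a library do not depend on how libraries are scaled. The 10 pairs, and each of the 5 against miR-23a-3p, gave 15 ratios, each tested by a 2-sided exact permutation test, for which p = 0.1 is the smallest possible. The smallest adjusted value found was 0.188. Groups did not overlap in 6 of the 10 pairs and in 8 of the 15 ratios, each at p = 0.1 by the exact test and an adjusted value of 0.188. Among miRNAs above 0 in all libraries, 41.9% of 222 had a ratio to miR-451-5p that was lower throughout EXO2. For the ratio to miR-23a-3p, 17.6% of 222 were higher throughout EXO2. No such share was computed over pairs of all miRNAs, so the count of pairs has no background to be set against.

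Relative to miR-451-5p, miR-486 was scarcer in all EXO2 libraries. The log2 ratio of miR-486 to miR-451-5p was -4.55, -4.32 and -4.79 in EXO2, against -4.24, -3.59 and -4.15 in EXO1, a difference of -0.56. The highest EXO2 and lowest EXO1 values lay close together. The ratio was highest in EXO1 replicate 2, without which the difference was -0.36. Muscle miRNAs took 82.6%, 23.2% and 0.909% of the reads in EXO1 replicates 1, 2 and 3, and their part in this ratio was not tested.

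The ratio of miR-185-5p to miR-451-5p held closely within each group, at -8.07, -7.95 and -7.91 on the log2 scale in EXO2, against -7.08, -6.73 and -6.75 in EXO1. The difference of -1.13 compares with an SD of 0.086 in EXO2 and 0.20 in EXO1, and it was -1.24 to -1.07 when any 1 library was left out. In linear terms, 1 read of miR-185-5p stood beside 269, 248 and 239.9 reads of miR-451-5p in EXO2, and beside 135, 106 and 107 in EXO1. The ratio of miR-144-3p to miR-451-5p, which share a transcript, overlapped between the groups, at -7.07, -7.22 and -6.96 in EXO2 against -6.97, -6.13 and -7.10 in EXO1 (difference -0.35, 2-sided exact permutation test, p = 0.5). Without EXO1 replicate 2 the difference was -0.050. Of the 222 miRNAs besides miR-451-5p that were above 0 in all libraries, 41.9% had ratios to miR-451-5p that were lower throughout EXO2, as did 3 of the other 4 red cell miRNAs. A lower ratio to miR-451-5p was therefore common among the miRNAs.

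The log2 ratio of miR-144-3p to miR-486, which come from separate genes, was -2.52, -2.90 and -2.17 in EXO2, against -2.73, -2.54 and -2.95 in EXO1, with a difference of 0.21 and overlapping groups (2-sided exact permutation test, p = 0.4). The log2 ratio of miR-185-5p to miR-144-3p was at most -0.74 in the EXO2 libraries, against -0.11, -0.60 and 0.35 in EXO1 replicates 1, 2 and 3, so that miR-185-5p was scarcer beside miR-144-3p in all EXO2 libraries (difference -0.78, 2-sided exact permutation test, p = 0.1). The ratio of miR-185-5p to miR-486 overlapped between the groups, with a difference of -0.57 (2-sided exact permutation test, p = 0.2), as did that of miR-144-5p to miR-185-5p. On the log2 scale that ratio was -2.74, -3.34 and -3.46 in EXO2, against -3.14, -2.92 and -0.92 in EXO1, a difference of -0.85 (2-sided exact permutation test, p = 0.3) that was -0.15 without EXO1 replicate 3.

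The arms of miR-144 differed in their balance. The log2 ratio of the 3p to the 5p arm was 3.74, 4.08 and 4.41 in EXO2, against 3.25, 3.52 and 0.57 in EXO1, so every EXO2 library lay above every EXO1 library (difference 1.63, 2-sided exact permutation test, p = 0.1). EXO1 replicate 3 stood far below the other 5 libraries, and the difference was 0.69 without it. In reads, the 5p arm made up 6.94% of both arms in EXO2 replicate 1 (852 reads of the 5p and 11422 of the 3p arm), 5.59% in replicate 2 and 4.49% in replicate 3. It made up 9.49% in EXO1 replicate 1 (335 and 3195 reads), 8.01% in replicate 2 and 40.2% in replicate 3 (1294 and 1922 reads, 95% Wilson interval 38.6% to 41.9%). The intervals of EXO2 replicate 1, 6.51% to 7.40%, and EXO1 replicate 2, 7.38% to 8.69%, overlap narrowly, so the lowest EXO1 and highest EXO2 shares lay close together. Of 38 precursors with both arms above 0 in all libraries, miR-144 alone had a higher 3p to 5p ratio in every EXO2 library, which is 2.63%, and 2 had a lower one. By the size of the difference in either direction miR-144 ranked 13 of 38.

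**Figure D4:**
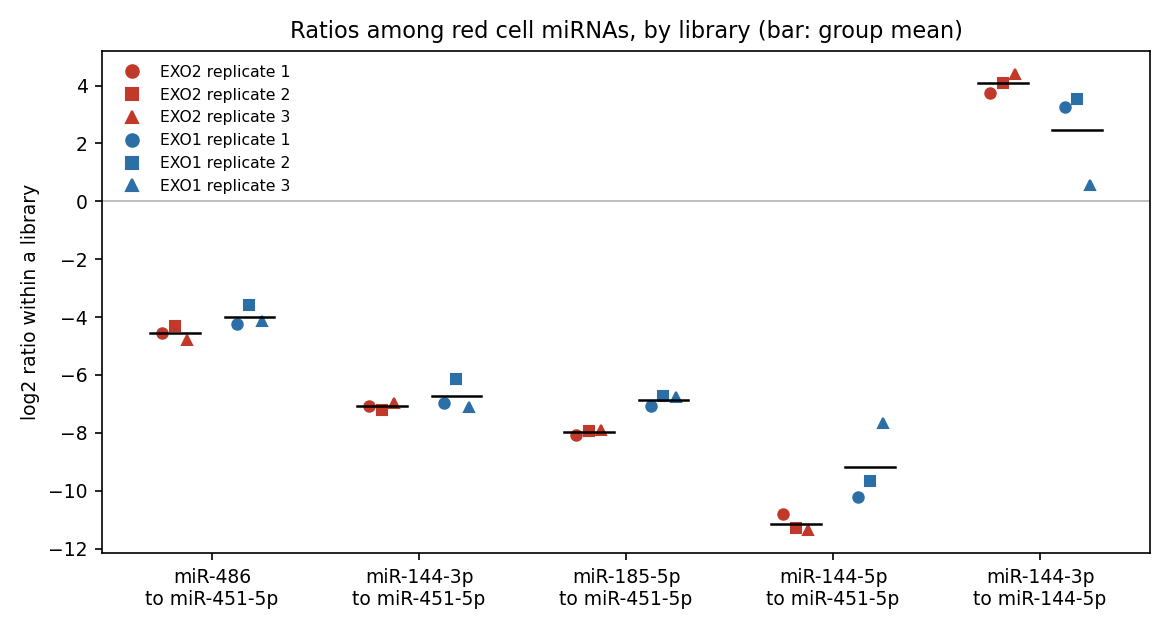
log2 ratios within each library of 4 red cell miRNAs to miR-451-5p, and of the 3p to the 5p arm of miR-144, with EXO2 in red at the left, EXO1 in blue at the right and a bar at the group mean. The ratio of miR-185-5p is about -8 in EXO2 and about -7 in EXO1, and the 2 ratios with miR-144-5p place EXO1 replicate 3 apart from all other libraries.

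miR-144-5p also had lower log2 ratios in EXO2 to miR-451-5p (-10.82, -11.29 and -11.37 in EXO2, against -10.22, -9.65 and -7.67 in EXO1) and to miR-486 (-6.26, -6.97 and -6.58 in EXO2, against -5.98, -6.06 and -3.52 in EXO1). EXO1 replicate 3 lay highest in both, and without it the differences of -1.98 and -1.42 became -1.22 and -0.58. Of the 6 libraries, EXO1 replicate 3 had the highest level of miR-144-5p and the lowest levels of the other 4 in normalized CPM. As shares of all miRNA reads, miR-144-5p was still highest there, but the other 4 were lowest in EXO1 replicate 1. Over the 6 libraries, the log2 values of miR-451-5p, miR-144-3p, miR-486 and miR-185-5p correlated with each other at Pearson's r of 0.94 to 0.98, whereas miR-144-5p correlated with them at -0.16 to 0.10. These correlations describe 6 libraries that fall in 2 groups and share their normalization, and are given without a test.

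Against miR-23a-3p, which red cells carry little of and which serves as the reference of a common index of red cell rupture in plasma, miR-451-5p had log2 ratios of 8.48, 9.45 and 9.45 in EXO2 and 8.30, 6.83 and 4.88 in EXO1. For miR-144-3p they were 1.41, 2.23 and 2.49 in EXO2 and 1.34, 0.70 and -2.22 in EXO1. The groups overlapped in neither, although EXO2 replicate 1 and EXO1 replicate 1 lay close together in both. The differences of 2.45 and 2.10 became 1.56 and 1.03 without EXO1 replicate 3, and with miR-191a-5p as the reference the groups overlapped for miR-144-3p (difference 0.68). For miR-486 the ratios were 3.93, 5.13 and 4.67 in EXO2 and 4.07, 3.24 and 0.73 in EXO1, and for miR-185-5p 0.41, 1.49 and 1.55 in EXO2 and 1.22, 0.10 and -1.87 in EXO1, both with overlap. The ratio of miR-144-5p to miR-23a-3p overlapped too, with a difference of 0.47. Only miR-451-5p and miR-144-3p among the 5 were higher in every EXO2 library in this ratio, as were 17.6% of the 222 miRNAs besides miR-23a-3p above 0 in all libraries. miR-23a-3p itself had 953, 727 and 859 normalized CPM in EXO2, against 802, 802 and 1977 in EXO1, so its high level in EXO1 replicate 3 lowers the ratios there. Red cell rupture before or during plasma collection is read from this same ratio, and its part in the levels of these miRNAs was not tested.

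A list of 9 other miRNAs known from red cells was described in the same way, and none of them passed an adjusted p of 0.05 in limma (lowest 0.297). All 9 had positive log2 fold changes, as did 154 of all 410 miRNAs, and their median was 1.41. Of the 9, 5 were past the thresholds of the methods and higher, against 24 of 410, and 8 were higher in every EXO2 library, against 47 of 410. The 410 include many miRNAs of lower level than the 9, and no such count was made over miRNAs of like level. The study lists miR-363-3p and miR-92a-3p among the miRNAs it found higher in these same libraries. The list was also chosen with earlier results known, so these counts are not independent evidence. miR-92a-3p, abundant in human red cells, had 10969, 15012 and 15130.2 normalized CPM in EXO2, against 7969.8, 3632 and 2802 in EXO1, with a log2 fold change of 1.65 ± 0.55 (SE; limma, adjusted p = 0.313). miR-363-3p, which shares its seed, had the largest log2 fold change of the list, 2.29 ± 0.61 (SE; limma, adjusted p = 0.297). miR-16-5p, a repressor of cyclins, had 6875, 9486 and 11323 in EXO2, against 5046, 6570 and 1942 in EXO1. For miR-25-3p, miR-93-5p and miR-106b-5p, which share a precursor cluster, log2 fold changes were 0.88, 0.86 and 1.04, and the groups did not overlap.

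Some markers of other blood cells were likewise higher throughout EXO2 in normalized CPM. Of the 3 platelet miRNAs 2 had positive log2 fold changes, and for 1, miR-223-3p, the groups did not overlap. The others, miR-126a-3p and miR-126a-5p, are arms of a single precursor, and miR-126a-5p, the exception, had a log2 fold change of -0.89. Whether the miRNAs of this list come from platelets alone was not tested. Of the 5 leukocyte miRNAs 4 had positive log2 fold changes, and for 2, miR-142-3p and miR-142-5p, the groups did not overlap. Those 2 are arms of a single precursor, and miR-146a-5p had a log2 fold change of -0.62. Of all 410 miRNAs, 154 had positive log2 fold changes and 47 (11.5%) were higher in every EXO2 library. The median log2 fold change was 0.16 over the platelet list and 0.26 over the leukocyte list, and no member of either passed an adjusted p of 0.05 in limma. As shares of all miRNA reads, the 3 platelet miRNAs took 1.45% to 1.65% of reads in EXO2 and 0.222% to 3.46% in EXO1, and the 5 leukocyte miRNAs 0.379% to 0.510% in EXO2 and 0.0974% to 0.564% in EXO1. The ranges of these shares in EXO2 lay inside those in EXO1, where the muscle reads of replicate 1 lower all other shares. The part of other blood cells in the results was not tested.

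Ranked by Pearson's r of log2 values over the 6 libraries, among 134 other miRNAs with a mean of at least 100 normalized CPM, those most like miR-451-5p were miR-92a-3p (r = 0.997), miR-140-3p (0.982), miR-363-3p (0.981), miR-191a-5p (0.974) and miR-484 (0.954). Those most like miR-486 were miR-25-3p (0.965), miR-92a-3p (0.962), miR-98-5p (0.961), miR-140-3p (0.958) and miR-484 (0.957). miR-140-3p, known from cartilage, had 4480.4, 5648 and 7161 normalized CPM in EXO2, against 4379, 2996 and 2260.2 in EXO1. The first of the ranking for miR-144-5p, looked up after its values were seen, was miR-101a-3p (r = 0.955), with 4121, 5066 and 5269 in EXO2, against 4369.8, 2994 and 6965 in EXO1. Its values, like those of miR-144-5p, were lowest in EXO1 replicate 2 and highest in EXO1 replicate 3. It is also 1 of the 2 miRNAs whose bases 2 to 7 match those of miR-144-3p, the opposite arm.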

How the data were processed

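Small RNA of plasma exosomes was sequenced in 3 EXO2 and 3 EXO1 libraries. Per the methods, the authors trimmed adapters, dropped reads under 15 nucleotides and used miRDeep2 for annotation. Cutadapt 1.14, Bowtie and edgeR 3.18.1 are listed in the submitters' processing notes. The deposited signal per library, headed CPM, is reads divided by a library factor, and 100% of the values were whole multiples of the worth of 1 read (relative tolerance 1e-06). The factors match recomputed TMM factors (largest difference 0.0%). A test on counts was not run, because most libraries held too few low values for the rule on recovering reads. The deposited log2 values of group means were not used.

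Of 468 rows, 420 mature miRNAs were kept, with the highest row of each of 43 repeated names. EXO2 was compared with EXO1 by limma 3.58.1 in R 4.3.3 (eBayes with trend) on log2(value + 1), with adjustment over 410 miRNAs, and ratios and shares by exact permutation tests in scipy 1.17.1. Tests were checked on data with known changes. The miRNAs and lists were chosen with earlier results of these data known. The miRNAs named are the 5, those of the lists and the 5 most like miR-451-5p and miR-486, and the choice of any other followed a look at its values. The alternatives were 3 other scalings, no filter, every row kept, a pseudocount of 0.5, a separate variance per miRNA, a replicate block, miR-191a-5p as the reference, a denominator without muscle miRNAs and leaving out each library.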

Additional observations from a re-analysis of the deposited data

How the results depend on the processing

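With 3 libraries per group none of the 5 miRNAs passed an adjusted p of 0.05 in any of 14 alternatives of the limma fit (0.108 to 0.979). The count of 54 miRNAs past the thresholds of the methods was 30 with scaling by library totals only, and 33 to 103 when 1 library was left out, lowest without EXO2 replicate 3 and highest without EXO1 replicate 1. Of these, 24 of 54 were higher in EXO2, against 8 of 30 with library totals, 18 of 60 with RLE size factors and 42 of 67 with TMM factors computed without red cell miRNAs. With a separate variance per miRNA, 1 of the 5, miR-451-5p, was past the thresholds. The change of miR-144-5p was -0.096 with RLE size factors and -0.26 to 0.40 when 1 library was left out. The other 4 kept positive changes under all 14. Against miR-191a-5p in place of miR-23a-3p, the ratio of miR-144-5p differed by -0.95 and that of miR-185-5p by -0.097, both reversed. Those of miR-144-3p and miR-486 differed by 0.68 and 0.47 with overlap, and that of miR-451-5p by 1.03 with no overlap. miR-191a-5p itself had 4613, 4606 and 5825 normalized CPM in EXO2, against 3826, 1861 and 1919 in EXO1. Its higher level in EXO2 lowers all 5 differences. miR-23a-3p had a mean of 846 normalized CPM in EXO2, against 1194 in EXO1, with overlapping groups, and this raises the differences taken against it. The signs for miR-144-5p and miR-185-5p thus depend on the choice of reference. Why the levels of these references differed was not tested. Scaling moved the median change of all miRNAs, which was -0.56, to -0.43 with library totals, -0.68 with RLE and -0.26 with TMM factors computed without red cell miRNAs. The lowest change of a red cell miRNA above the median of all, over the reported fit and these 14, was 0.072, that of miR-144-5p without EXO1 replicate 2. That median is over all miRNAs tested. Over the 139 with a mean of at least 100 normalized CPM, the median was 0.12 in the reported fit. The change of miR-144-5p in that fit, 0.11, lay just under it.

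The values showed little sign that the numbers of the libraries pair them. Same-numbered libraries of both groups deviated together at correlations of -0.036, 0.055 and -0.12, and 1 of 6 libraries correlated best with its own number. With 3 libraries per group, these correlations cannot settle whether libraries were paired. With the number as a replicate block, 41 miRNAs were past the thresholds, among the 5 only miR-144-3p, with adjusted p = 0.285 from limma.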
